A study of Mus musculus with 6 samples.

Results

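Occupancy was examined at 10 genes that promote, restrain or mark the making of fat cells, for the transcription factor Krüppel-like factor 3 (KLF3): Cebpa, Cebpb, Cebpd, Pparg, Zfp423, Ebf1, Srebf1, Prdm16, Fabp4 and Dlk1. A peak was assigned to a gene when the deposited table of all peaks named that gene as the one with the nearest transcription start site (TSS). This gave 11 of 22188 peaks, at 6 of the 10 genes. Ebf1 had 3 peaks, Pparg, Srebf1 and Dlk1 had 2 each, and Cebpb and Cebpd had 1 each, while Cebpa, Zfp423, Prdm16 and Fabp4 had none under their own names.

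Fat cells form in ordered steps. The C/EBP factors encoded by Cebpb and Cebpd are switched on early, and with them the nuclear receptor PPARγ (Pparg) and C/EBPα (Cebpa) are induced, which together turn on genes of the mature adipocyte such as Fabp4, a fatty acid carrier. Srebf1 encodes the SREBP-1 activators of fatty acid synthesis, Zfp423 and Ebf1 act in committed preadipocytes, Prdm16 directs brown and beige fat, and Dlk1 (Pref-1) is a preadipocyte protein that holds differentiation back. KLF3 is a repressor of the Krüppel-like family that recognises CACCC and related GC-rich boxes through 3 C-terminal zinc fingers, recruits the corepressor CtBP through its N-terminal region, and is known to restrain adipocyte differentiation.

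The data are from chromatin immunoprecipitation sequencing (ChIP-seq) with an anti-V5 antibody in murine embryonic fibroblasts (MEFs) of C57BL/6 background, grown in standard medium with no adipogenic treatment given in the labels. All cells were Klf3-/- and carried a V5-tagged construct delivered by a murine stem cell retrovirus. The construct was full-length Klf3-V5 (KLF3), ΔDL-V5 with a substitution of 2 residues in the CtBP contact motif (ΔDL), or DBD-V5 with the zinc fingers alone (DBD). Each construct was expressed in stable clonal lines, so that a construct and its clone cannot be told apart. The study picked clones by their construct protein, which it describes as alike between constructs and near the endogenous amount for full-length KLF3, with somewhat less transcript for DBD. Each construct was profiled in 2 replicates, with paired inputs. The processed files used here hold no RNA values, and the cell type and the expression of the genes were not analysed here.

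A peak height was the log2 number of tags (reads as kept and counted by the peak caller) in 400 bp around the peak centre per 100 M tags, counted by the authors over both replicates of a construct together, so each peak has 1 height per construct and no replicate error. Replicate evidence came from the 6 lists of peaks called on single replicates. By the worth of 1 tag in those lists, the KLF3 replicates held 5.46 M and 18.1 M tags, those of ΔDL held 1.77 M and 10.2 M, and the DBD replicates 7.81 M and 8.38 M. These totals are smaller than the numbers of mapped reads that the study lists, and the step between them is not given in the sources used here. The second replicate gave 76.8% of the KLF3 tags and 85.3% of the ΔDL tags. Counting intervals are 95% intervals on the tags behind a height, which were known to within 1 tag, and they cover counting error only.

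The peaks lay mostly far from the TSS they were assigned to. By the authors' RefSeq distances, 2 peaks lay within 1 kb of the TSS of the gene they were named for, at Cebpb and Srebf1, and 9 of the 11 lay over 10 kb away (median 44280 bp, against 24445 bp over all peaks). By the authors' annotation 1 was in a promoter, 5 were in introns and 5 were intergenic. Promoters held 20.1% of all peaks and 30.2% of the peaks listed for KLF3. Among the 10750 genes named in the table, 23.2% had at least as many peaks as Ebf1 and 44.8% had at least as many as Pparg, Srebf1 or Dlk1.

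Sequences were read from the mm9 genome to show which KLF boxes the peaks hold. A KLF match was any of ACACCC, or else ACGCCC, or else CCACCC, or else CCGCCC, on either strand. The match nearest the peak centre is in capitals within 30 bases, 5′ to 3′ on the strand that carries it, for the 9 of 11 peaks that held one anywhere in their 401 bases.
Cebpb, chr2:167514260-167514289, plus strand: ggggctggcgggACGCCCgggtcaccgctc
Cebpd, chr16:15984722-15984751, minus strand: attgaggatgacACACCCtgttttgaattg
Pparg, distal peak, chr6:115266038-115266067, minus strand: aatctcccagtcCCACCCtgtcgcactcca
Pparg, proximal peak, chr6:115266956-115266985, plus strand: atgagagccggaCCGCCCcaccaagatctc
Ebf1, upstream peak, chr11:44384825-44384854, plus strand: tctaatatttatACACCCagacttctggat
Srebf1, inner peak, chr11:60023962-60023991, plus strand: cgcctccgtgccCCGCCCctcgggtgagcg
Srebf1, first peak, chr11:60033391-60033420, minus strand: ctgcgctgagccACACCCcaggccacttag
Dlk1, distal peak, chr12:110656201-110656230, plus strand: caggaggcccctCCGCCCccttggcagagc
Dlk1, proximal peak, chr12:110674665-110674694, plus strand: ccctgccttgccCCGCCCcgccctttccac

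In 8 of the 11 peaks a match lay within the central 100 bp, against 40.2% of all 22188 peaks and 57.5% of the peaks listed for KLF3. The 3 exceptions were the Ebf1 peaks: the upstream peak had its nearest match 160 bp from the centre, and the intronic peaks had none in 401 bases. The match lay 4 bp from the centre in the distal Pparg peak, 6 bp in the proximal Dlk1 peak and 12 bp in the proximal Pparg peak. Of the other letters searched on both strands in the central 100 bp, TGANTCA (AP-1) was in 3 of 11 peaks (10.1% of all), namely the distal Pparg, the +108 kb Ebf1 and the first Srebf1 peak. GGAATG (TEAD) was in 1, the distal Dlk1 peak (7.21% of all), and CCCNNGGG (EBF) in 1, the inner Srebf1 peak (4.63% of all). TTGCNNCAA (0.798% of all) and CCGGAAG (ETS, 2.83% of all) were in none. TTGCNNCAA was searched as a C/EBP word but is 1 base longer than the C/EBP core, so it cannot match that core. Whether the peaks hold C/EBP sequences was therefore not tested. An EBF match can share its CCC with a KLF match. A match of letters describes the sequence and is not a measured site.

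The peak at Cebpb was the only one of the group that the authors' RefSeq annotation put in a promoter. It lay at chr2:167514098-167514498, centred 117 bp upstream of the TSS, with a G+C content of 78.6%. The central 200 bases, chr2:167514198-167514397 on the plus strand, hold no exon of the GENCODE annotation and are shown to give the spacing of the 5 KLF matches, in capitals on either strand (the minus-strand words read GGGCGG or GGGTGG here).
Cebpb promoter: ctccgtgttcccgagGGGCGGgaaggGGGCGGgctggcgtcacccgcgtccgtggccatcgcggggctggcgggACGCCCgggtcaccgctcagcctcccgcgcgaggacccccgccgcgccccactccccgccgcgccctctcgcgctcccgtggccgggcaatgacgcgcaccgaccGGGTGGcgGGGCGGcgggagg
The Cebpb height was 7.98 log2 in KLF3, 6.02 in ΔDL and 3.90 in DBD, which rests on 58 to 59, 7 to 8 and 2 to 3 tags. The 3 constructs were thus in the order KLF3, ΔDL, DBD, and only KLF3 was called in both of its replicates, with 7 and 19 tags. Against KLF3 the height was 3.89-fold lower in ΔDL (log2 difference -1.96, counting interval -3.47 to -0.81). In DBD it was 16.9-fold lower (-4.08, interval -7.42 to -2.11). Over the 4259 promoter peaks listed for KLF3 the median differences were -0.71 for ΔDL and -3.02 for DBD, and 6.10% of them lay below the Cebpb value in ΔDL and 13.7% in DBD.

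The single listed Cebpd peak behaved differently from the one at Cebpb. It lay 97.4 kb from the Cebpd TSS, at chr16:15984554-15984954, inside intron 8 of 19 of another gene, which GENCODE names 2310008H04Rik, so only distance ties it to Cebpd. Its heights were 8.02 in KLF3, 8.28 in ΔDL and 7.21 in DBD. The ΔDL difference was 0.26 (interval -0.42 to 0.90), or -0.80 once heights were scaled to a common median over peaks listed for all 3 constructs, and the DBD difference was -0.81 (interval -1.63 to -0.08), the smallest shortfall in DBD of any peak listed for KLF3 here. This was also the only peak of the group called in a DBD replicate, with 10 tags in replicate 1, beside 18 and 24 tags in the KLF3 replicates and 22 in ΔDL replicate 2. Its conservation score of 0.51 was the highest of the 11 peaks, whose median was 0.22 against 0.14 in the KLF3 list.

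Closer to Cebpd, a peak at chr16:15863345-15863745, 23.8 kb from its TSS, was listed for KLF3 and ΔDL but named for Mzt2. Its heights were 8.71 in KLF3, 8.87 in ΔDL and 6.38 in DBD. Nearer still, replicate peaks named for Cebpd were called that did not reach the table of all peaks. KLF3 replicate 2 had a peak 80 bp upstream of the TSS, at chr16:15887228-15887370, with 50 tags, which placed it above 90.7% of that list or level with it. ΔDL replicate 2 had one at 50 bp upstream with 13 tags and another at 1439 bp past the TSS with 8. None had a counterpart in the other replicate of its construct. At the rate of KLF3 replicate 2, the depth of replicate 1 would give 15.1 tags, where the lowest peak of that list had 5. For the ΔDL peak of 13 tags the same sum gives 2.24, where that list's lowest was 4. The sum takes both replicates at the same tags per 100 M. At all peaks called in both replicates, replicate 1 stood above replicate 2 by a median of 0.63 log2 for KLF3 and 1.69 for ΔDL. Why the other replicate had no call was not tested. A second group of calls lay over 100 kb from the TSS. There the KLF3 peaks held 12 and 15 tags and lay 631 bp apart, the ΔDL peaks held 5 and 21 and lay 64 bp apart, a further peak of ΔDL replicate 2 at 104930 bp held 9, and DBD replicate 2 had a peak of 8. Since the authors merged replicates by literal overlap, these sites were not listed.

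**Figure D1:**
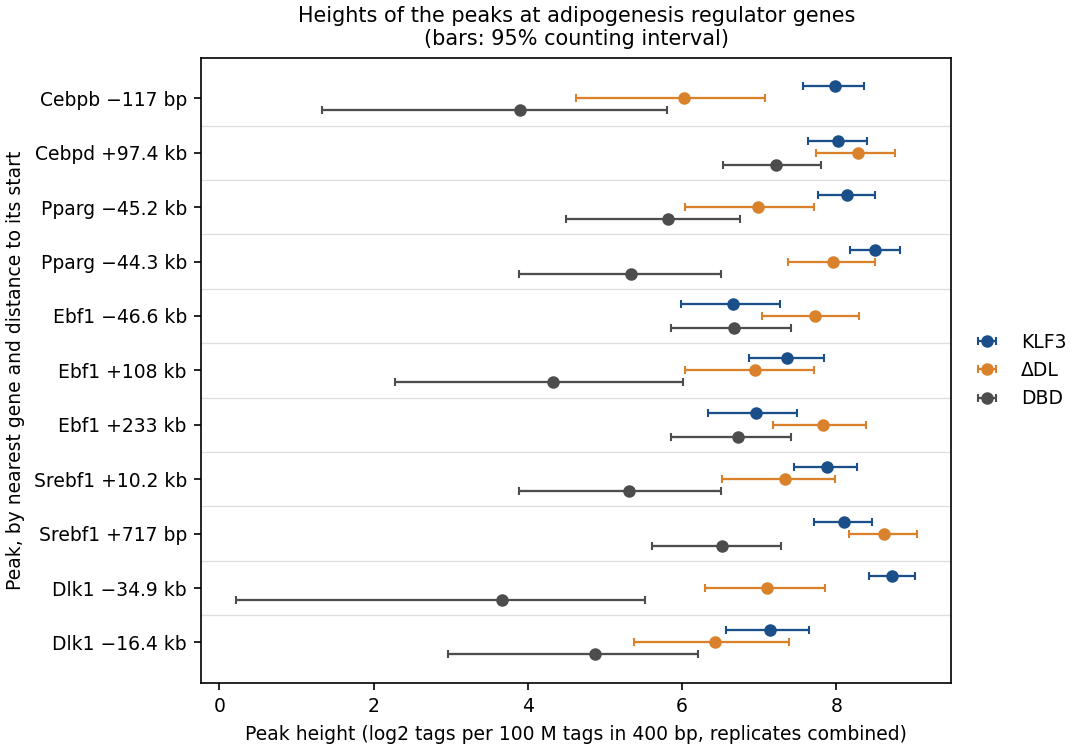
Heights of the 11 peaks on a log2 axis (tags per 100 M tags in 400 bp), with a point per construct and bars for the 95% counting interval of the combined tags. KLF3 is highest at 7 peaks and ΔDL at 4, and DBD is lowest at 10 of 11; with heights scaled to a common median the 4 ΔDL excesses become differences of -0.80, -0.54, 0.00 and -0.19.

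At Pparg, whose product is the central regulator of fat cell identity, both peaks were intergenic and lay side by side 45.2 and 44.3 kb upstream of the TSS, at chr6:115265848-115266248 and chr6:115266759-115267159, with 510 bases between them. The distal one had heights of 8.13 in KLF3, 6.98 in ΔDL and 5.82 in DBD. The proximal one had 8.50, 7.96 and 5.34. The KLF3 lists alone held them, the distal peak with 12 and 33 tags and the proximal one with 12 and 39, so the same order of constructs held at both. In ΔDL the distal peak was 2.22-fold lower (-1.15, interval -2.21 to -0.31) and the proximal one 1.45-fold lower (-0.54, interval -1.23 to 0.11). In DBD the distal peak was 4.96-fold lower (-2.31, interval -3.77 to -1.30) and the proximal one 8.94-fold lower (-3.16, interval -4.77 to -1.94). The 120 bases at the centre of the proximal peak, chr6:115266899-115267018 on the plus strand, are shown because this is the higher peak in KLF3 and holds 1 match.
Pparg proximal peak: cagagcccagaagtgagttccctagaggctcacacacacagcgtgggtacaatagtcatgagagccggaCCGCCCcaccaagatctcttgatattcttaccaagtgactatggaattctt
The remaining calls at Pparg were a peak of 5 tags in ΔDL replicate 1, 29238 bp past the TSS, and one of 9 tags in KLF3 replicate 1, 58084 bp past it, each in 1 list.

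Srebf1 had 2 peaks in the authors' intron 1 of 18. The first, at chr11:60033189-60033589, lay 717 bp past the TSS. Its heights were 8.10 in KLF3, 8.62 in ΔDL and 6.52 in DBD, with 12 and 30 tags in the KLF3 replicates, 22 in ΔDL replicate 2 and no call elsewhere. This peak was higher in ΔDL than in KLF3 by 0.52 (interval -0.08 to 1.12), a direction that turned to -0.54 with scaled heights, and its ΔDL height exceeded 91.1% of all peaks or equalled them. In DBD it was 2.99-fold lower (-1.58, interval -2.60 to -0.70). A separate peak of 10 tags in ΔDL replicate 2 lay at -31 bp from the TSS and overlapped no listed peak.
Srebf1 first peak, chr11:60033329-60033448, plus strand: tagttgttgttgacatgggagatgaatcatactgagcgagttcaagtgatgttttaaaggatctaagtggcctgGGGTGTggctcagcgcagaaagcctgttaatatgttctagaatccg
The inner peak, at chr11:60023749-60024149 and 10.2 kb past the first TSS, coincided with 3 GENCODE start sites of shorter Srebf1 transcripts, 93, 55 and 18 bp from its centre. The authors' annotation by RefSeq calls it intronic, and the peak overlaps an untranslated exon in GENCODE. It was the only peak of the group listed for both KLF3 and ΔDL. The heights were 7.88, 7.33 and 5.31 in KLF3, ΔDL and DBD, and calls came from both replicates of KLF3 (7 and 28 tags) and of ΔDL (5 and 10 tags). The ΔDL difference was -0.55 (interval -1.49 to 0.25) and the DBD difference -2.57 (interval -4.16 to -1.27). As deposited, the 2 Srebf1 peaks thus stood on opposite sides of KLF3 in ΔDL, with intervals that overlapped, and both were below KLF3 in ΔDL once scaled. In DBD both were lower.

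Dlk1, the inhibitor of the group, had its 2 peaks upstream of the gene at 34.9 and 16.4 kb, both intergenic, at chr12:110655977-110656377 and chr12:110674473-110674873. The distal peak was the highest of all 11 in KLF3 and the lowest in DBD. Its heights were 8.72 in KLF3, 7.10 in ΔDL and 3.66 in DBD, from 98 to 99, 16 to 17 and 1 to 2 tags. The KLF3 height exceeded or equalled 88.0% of all peaks, and the DBD height 2.55%. Against KLF3 it was 3.07-fold lower in ΔDL (-1.62, interval -2.51 to -0.80). In DBD the ratio was 33.4 (difference -5.06), with an interval of -11.41 to -3.18 that reflects a count of 1 to 2 tags.
Dlk1 distal peak, chr12:110656117-110656236, plus strand: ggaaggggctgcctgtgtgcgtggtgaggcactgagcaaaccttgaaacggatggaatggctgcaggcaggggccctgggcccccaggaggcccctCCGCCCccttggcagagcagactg
The proximal peak had heights of 7.14, 6.43 and 4.87 in KLF3, ΔDL and DBD. Its differences were -0.71 in ΔDL (interval -1.93 to 0.46) and -2.27 in DBD (interval -4.46 to -0.77). No ΔDL or DBD list held either peak, whereas the KLF3 lists gave 14 and 31 tags to the distal one and 8 and 21 to the proximal one. A site further out, at -120604 bp by its KLF3 call, was called once for each construct, with 7 tags in KLF3 replicate 1, 11 in ΔDL replicate 2 and 11 in DBD replicate 2, and so was listed for none. Nearer to the gene, KLF3 replicate 1 had 11 tags at -7609 bp and ΔDL replicate 2 had 8 at -7587 bp, again in 1 list each.

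Ebf1, a factor that favours adipogenesis and B cell fate, had the only peaks of the 11 that were listed for ΔDL alone. They entered the table through calls in both ΔDL replicates. A ΔDL height above KLF3 is thus favoured by how they were listed and is not independent evidence. Over all peaks 28.8% were at least 2-fold higher in ΔDL, against 11.0% of those listed for KLF3. The upstream peak, at chr11:44384800-44385200 and 46.6 kb before the TSS, was listed for ΔDL alone, with heights of 6.66 in KLF3, 7.72 in ΔDL and 6.67 in DBD. The peak 233 kb past the TSS, at chr11:44664402-44664802 in intron 6 of 15, was also listed for ΔDL alone, with 6.96, 7.83 and 6.72. At both, KLF3 and DBD heights were close (differences of 0.01 and -0.24, intervals -1.06 to 1.07 and -1.30 to 0.74), and ΔDL was above both. The ΔDL differences were 1.06 (interval 0.10 to 1.98) and 0.87 (upper bound 1.74, with a lower bound that rounds to 0). The ΔDL lists gave 11 and 17 tags to the upstream peak and 7 and 15 to the intronic one, and KLF3 replicate 1 gave 7 tags to each. Scaled to a common median, the differences were 0.00 and -0.19, so that ΔDL no longer stood above KLF3. Neither peak held a KLF match in its central 100 bp, and their G+C contents were 38.9% and 35.4%, the latter being the lowest of the 11.

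The middle Ebf1 peak lay at chr11:44539263-44539663 in the same intron, 108 kb past the TSS. It was listed for KLF3, and as deposited both mutants were below KLF3. Its heights were 7.36 in KLF3, 6.94 in ΔDL and 4.32 in DBD, with differences of -0.42 (interval -1.50 to 0.53) and -3.04 (interval -5.50 to -1.23). The KLF3 lists gave it 11 and 21 tags and ΔDL replicate 2 gave 10, and it held the AP-1 letters but no KLF match. Around the Ebf1 TSS itself, 7 replicate peaks were called within 1500 bp, and none overlapped a listed peak. KLF3 replicate 1 had peaks at -789, -86 and 788 bp with 9, 9 and 10 tags, and KLF3 replicate 2 at -936 and 1098 bp with 29 and 26 tags. The upstream pair was separated by 15 bp and the downstream pair by 178 bp. For ΔDL the replicates had peaks at 779 and 1124 bp, with 8 and 14 tags and a gap of 214 bp. Both replicates of KLF3 and of ΔDL thus had calls beside the Ebf1 start that did not overlap each other. DBD had none there.

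**Figure D2:**
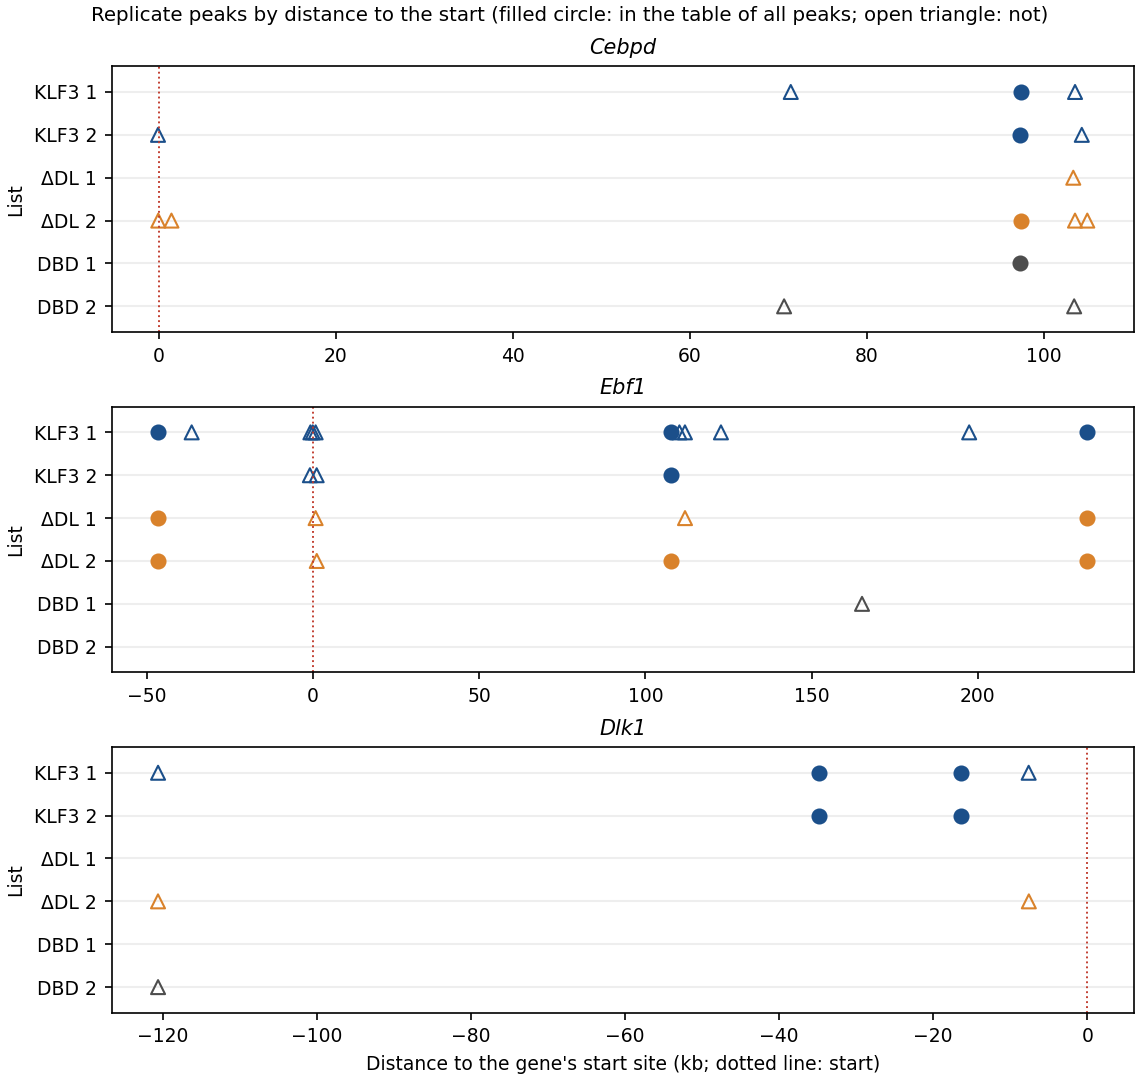
Replicate peaks at Cebpd, Ebf1 and Dlk1 by distance to the start site in kb, with a row for each of the 6 lists. Filled circles overlap a peak in the table of all peaks and open triangles do not; the open triangles near 0 at Cebpd and Ebf1 are the 3 Cebpd calls of 50, 13 and 8 tags and the 7 Ebf1 calls, all within 1500 bp of the start.

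The 4 genes without a listed peak differed in what the replicate lists held. Cebpa and Prdm16 were named in none of the 6 lists. Fabp4 was named for 4 peaks, of which 1 in KLF3 replicate 1 (6 tags) and 1 in ΔDL replicate 2 (9 tags) lay on the same site, 2660 bp past the TSS by the KLF3 call. The other 2 were in ΔDL replicate 2 with 10 and 8 tags, upstream of the gene. Zfp423 was named for 1, in ΔDL replicate 2 with 10 tags, at -27197 bp from the TSS. No DBD list named any of these genes. The KLF3 peak at Fabp4 exceeded or equalled 9.44% of its list, and the ΔDL peaks at Fabp4 and Zfp423 between 19.5% and 46.2% of theirs. A site with fewer tags than the lowest call of a list (5 and 13 in the KLF3 lists) was not listed, and occupancy below that level was not detectable.

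Naming by the nearest TSS also set which genes had no peak. A peak at chr4:154005709-154006109 lay inside the GENCODE span of Prdm16, 5.07 kb from its first start, but was named for the noncoding 5930403L14Rik. It was called in both KLF3 and both ΔDL replicates and in 1 DBD replicate, with heights of 6.94, 7.73 and 6.80. As deposited, ΔDL was 0.79 above KLF3, a difference within the scaling shift of -1.06, and the DBD difference was -0.14, the same order as at the ΔDL-listed Ebf1 peak in intron 6. A peak in intron 5 of 7 of Zfp423, at chr8:90255664-90256064, was named for 4933402J07Rik. It was listed for ΔDL alone with heights of 6.71, 7.38 and 6.91, but was also called in 1 KLF3 and 1 DBD replicate. As deposited, ΔDL was 0.67 above KLF3 there, again a difference within the scaling shift. The listed peak nearest to the Cebpa TSS was 62.6 kb away and named for Cebpg, with heights of 9.98, 9.02 and 5.39 in KLF3, ΔDL and DBD. The one nearest to Fabp4 was 70.1 kb away and named for Pmp2.

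Of the 11 peaks, 9 were called in both KLF3 replicates (64.1% of all peaks), 3 in both ΔDL replicates (55.9%) and 0 in both DBD replicates (22.4%). At least 1 replicate called 11, 6 and 1 of them, counts for which the share over all peaks was not computed. The single KLF3 lists called 11 and 9 of the 11, the ΔDL lists 3 and 6, and the DBD lists 1 and 0, and the constructs did not overlap. Of all 22188 peaks, replicates 1 and 2 called 80.1% and 66.7% in the KLF3 lists. The ΔDL lists held 57.4% and 82.8%, which overlaps the KLF3 range, and those of DBD 31.0% and 27.4%. The KLF3 lists called 10.0 ± 1.41 peaks on average (SD, n = 2), the ΔDL lists 4.50 ± 2.12 and the DBD lists 0.50 ± 0.707. The differences of -5.5 and -9.5 each gave p = 0.333 in a two-sided exact permutation test, adjusted p = 0.333 over both comparisons, which is the smallest p that 2 lists against 2 allow. Since 9 of the 11 peaks entered the table through calls in both KLF3 replicates, the high KLF3 counts are largely set by how peaks were listed, and their direction is not independent evidence. The depths of the lists differed between constructs as given above, and their part in these counts was not tested.

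**Figure D3:**
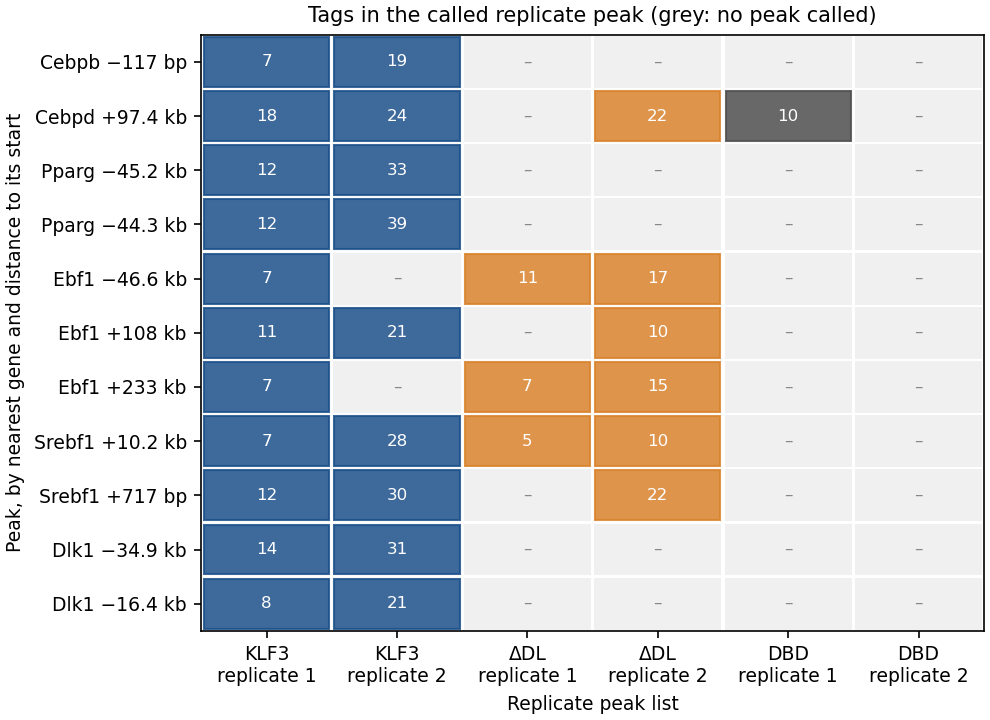
Tags in the replicate peak that overlaps each of the 11 peaks, by list; grey cells have no call. Both KLF3 columns are filled at 9 peaks, both ΔDL columns at 3, and only 1 DBD cell is filled, for Cebpd with 10 tags.

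A fold of 2 between constructs was used to count differences in height. In ΔDL, 3 of 11 peaks were at least 2-fold lower than in KLF3 (14.8% of all peaks), at Cebpb, Pparg and Dlk1. By contrast 1 was at least 2-fold higher (28.8% of all peaks), at Ebf1. Among the 9 peaks listed for KLF3 the counts were 3 lower (23.3% of the 14115 peaks listed for KLF3) and 0 higher (11.0%). In DBD, 8 of 11 were at least 2-fold lower (52.6% of all peaks) and 0 higher (3.27%), and of the 9 listed for KLF3, 8 were lower (79.2%) and 0 higher (0.184%). Heights were also scaled to a common median over the 2334 peaks listed for all 3 constructs. This shifts every ΔDL height by -1.06 and every DBD height by -0.42. Then 7 of 11 peaks were lower in ΔDL (43.0% of all peaks) and 0 higher (0.397%). In DBD 9 were lower (53.7% of all peaks). These 7 and 9 peaks were all among the 9 listed for KLF3, where the general shares were 66.4% and 80.2%. The scaling takes those 2334 peaks as equally occupied by the 3 constructs, which was not tested. They were selected by listing in both mutants as well as KLF3. Their median heights were 7.05 in KLF3, 8.11 in ΔDL and 7.47 in DBD. The DBD count as deposited lay near the share of KLF3-listed peaks in general. The median difference was -0.54 in ΔDL and -2.31 in DBD over the 11 peaks, against 0.42 and -1.45 over all peaks and -0.35 and -2.54 over those listed for KLF3.

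The counting interval of the ΔDL difference lay wholly below 0 at 3 of 11 peaks (19.8% of all peaks) and above 0 at 1 (29.0%). Of the 9 peaks listed for KLF3, it lay below 0 at 3 (31.0% of all KLF3-listed peaks) and above 0 at 0 (17.1%). For DBD the interval lay below 0 at 9 of 11 peaks (52.4% of all peaks) and above 0 at 0 (2.66%). Of the 9 listed for KLF3, it lay below 0 at 9 (79.3% of all KLF3-listed peaks) and above 0 at 0 (1.18%). At the 9 peaks called in both KLF3 replicates, replicate 1 over replicate 2 in tags per 100 M ranged from -0.27 to 1.31 log2 (median 0.34). At the 3 peaks called in both ΔDL replicates it ranged from 1.44 to 1.91, beside a median of 1.69 over all peaks called in both ΔDL replicates. These ratios hold only for peaks called in both lists, and the ΔDL offset was common to that construct's peaks, so they give no error for the differences in height. ΔDL was above DBD at all 11 peaks, by 1.05 to 3.44 log2, as at 98.0% of all peaks.

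**Figure D4:**
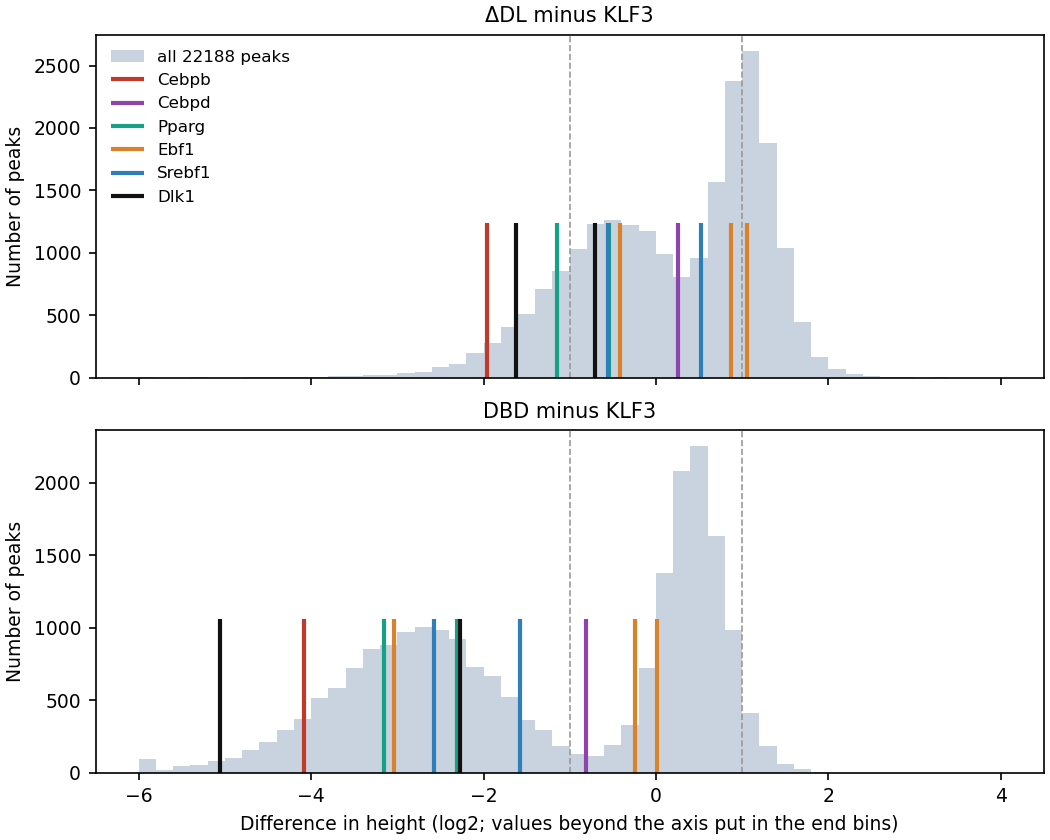
Differences in height from KLF3 (log2) for all 22188 peaks as histograms, with the 11 peaks as coloured lines by gene and dashed lines at 2-fold. In DBD the 2 ΔDL-listed Ebf1 peaks lie at 0.01 and -0.24, and 8 lie between -1.58 and -5.06.

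A wider list of 77 genes with roles in adipogenesis, compiled from general knowledge and leaving out the 10 genes and the KLF family, had 165 peaks at 51 genes. Of these, 35 (21.2%) were at least 2-fold lower in ΔDL and 38 (23.0%) higher, against 14.8% and 28.8% of all peaks. In DBD 112 (67.9%) were lower and 6 (3.64%) higher, against 52.6% and 3.27% of all peaks. With the heights scaled to a common median over peaks listed for all 3 constructs, the ΔDL counts became 90 lower and 1 higher (43.0% and 0.397% of all peaks), so the ΔDL split depends on the scaling. Of the 119 peaks listed for KLF3, 35 were lower and 9 higher in ΔDL and 107 lower and 1 higher in DBD as deposited, beside the shares of 23.3%, 11.0%, 79.2% and 0.184% over all KLF3-listed peaks. The same shares are the background for the KLF3-listed counts given by role. For counts over every peak of a role, the background is the share of all peaks as deposited, given above. Promoter peaks numbered 25 of the 165. The genes named by role below are the 3 whose highest peak is highest in KLF3. Calls in KLF3 and lower heights in the mutants are thus favoured at them by the choice.

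Other transcription factors that favour adipogenesis had 18 peaks at 7 of 11 genes, of which 3 were lower and 2 higher in ΔDL and 14 lower and 1 higher in DBD. Of the 15 listed for KLF3, 3 were lower in ΔDL and 14 in DBD, and 0 were higher in either. Ebf3, a relative of Ebf1, had its highest peak 9.32 kb from the TSS with heights of 8.81, 9.06 and 6.10 in KLF3, ΔDL and DBD. Egr2 (Krox20), an early inducer, had a promoter peak with 8.78, 8.60 and 4.76. Nr3c1, the glucocorticoid receptor, had an intergenic peak with 8.72, 7.87 and 4.46. All 3 were called in both KLF3 replicates, which their choice by KLF3 height favours, and in no DBD replicate.

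Factors that restrain adipogenesis had peaks at 14 of 15 genes, 64 in all, of which 14 were lower and 11 higher in ΔDL and 45 lower and 4 higher in DBD. The 47 listed for KLF3 gave 14 lower and 2 higher in ΔDL and 43 lower and 1 higher in DBD. Hes1, a Notch target, had heights of 9.48, 7.98 and 5.42 at 5.19 kb. Tcf7l2, a Wnt pathway effector with 12 peaks, had 9.37, 9.08 and 6.72 at its highest. Wnt10b, a ligand that blocks adipogenesis, had 9.16, 7.14 and 5.14 at 2.15 kb from the TSS, a ΔDL difference of -2.02. As deposited, the ΔDL differences at Hes1 and Tcf7l2 were -1.50 and -0.29, to each of which the scaling adds -1.06.

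Cofactors had 44 peaks at 12 of 15 genes (9 lower and 13 higher in ΔDL, 26 lower and 0 higher in DBD), and signals and receptors had 27 at 11 of 13 (7 and 10 in ΔDL, 15 and 1 in DBD). Among those listed for KLF3, 9 of 29 cofactor peaks were lower and 4 higher in ΔDL and 25 lower in DBD, and 7 of 17 signal and receptor peaks were lower and 2 higher in ΔDL and 14 lower in DBD. The highest cofactor peaks were at Nrip1 (the corepressor RIP140), Lpin1 and Tle3, with ΔDL differences of -0.55, -1.03 and -1.45. Among the signalling genes, Irs2, an insulin receptor substrate, had 9.80, 8.65 and 4.53 in KLF3, ΔDL and DBD. The promoter of Igf1r, the IGF-1 receptor, had 8.97, 6.53 and 4.78 and was called in no ΔDL or DBD replicate. Insr, the insulin receptor, had 8.36, 7.80 and 4.95. In DBD the 6 peaks differed from KLF3 by -2.93 to -5.27.

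Genes of the mature adipocyte had the fewest peaks, 12 at 7 of 23 genes, of which 11 were listed for KLF3. In DBD 12 of 12 were at least 2-fold lower, and 2 were lower and 2 higher in ΔDL. For the 11 listed for KLF3 the counts were 11 lower in DBD, a direction that 79.2% of all KLF3-listed peaks took, and 2 lower and 1 higher in ΔDL. The promoter of Agpat2, an enzyme of triglyceride synthesis, had 9.57, 7.39 and 3.84. Fabp5, a relative of Fabp4, had 9.12, 10.39 and 7.64 at an intergenic peak 64.8 kb away, called in both replicates of all 3 constructs, where ΔDL was 1.27 above KLF3 as deposited. Scd2, a fatty acid desaturase, had 8.96, 9.20 and 6.05.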

How the data were processed

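Per the labels and the study's methods, the authors aligned reads to mm9 with Bowtie2 2.0.0, called peaks on each replicate against its paired input with HOMER 4.1, merged replicates and constructs by literal overlap, and named each peak for the nearest RefSeq TSS. The deposited table of all peaks gives log2 heights (tags per 100 M in 400 bp, replicates combined, at totals of 23.3 M, 11.8 M and 16.0 M tags). The deposited replicate lists give a signal, the peak score in tags per 100 M, which lay within 0.011 tags of a whole multiple of 1 tag's worth at every peak of each list and so gave tags and depth. The deposited merged lists give G+C as a fraction and a PhastCons conservation score.

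Where the deposited tables repeat the height of the same interval, 14.4% to 36.8% of the values were identical, and those under 30 tags differed by up to 1.07 tags, so heights were read as known to within 1 tag. Tags were taken as the whole numbers on either side of the height, intervals are exact Poisson for counts and exact Clopper-Pearson for ratios at 95%, and the wider reading was kept. Heights have no replicates and were not tested. The number of the 11 peaks called per list was compared by a two-sided exact permutation test with Benjamini-Hochberg adjustment. Overlap was at least 1 bp. Coordinates are 1-based on mm9, and 900 of 900 intervals checked had the deposited G+C fraction in the NCBIM37 genome to within 1e-05. GENCODE vM1 gave start sites and exons.

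All 10 genes and all their peaks are named, with, for each role of the wider list, the 3 genes whose highest peak is highest in KLF3. The genes and lists were chosen with earlier results of these data known. Whether the replicates came from separate cultures is not given in the sources used here. Analyses used Python 3.11.15, pandas 2.3.3, scipy 1.17.1 and pysam 0.24.0, and the functions were tested on simulated data. Alternatives covered scaling, fold, distance, overlap, list depth and single replicates.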

Additional observations from a re-analysis of the deposited data

Results flagged for a closer look

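The signals here lie in replicate peak lists and overlap no peak in the table of all peaks, so the comparisons between constructs do not use them. They were called by the authors above the paired input. Fabp4 was named for 4 replicate peaks and Zfp423 for 1, and neither gene has a listed peak. The Cebpd start site carried a peak of 50 tags in KLF3 replicate 2 and peaks of 13 and 8 tags in ΔDL replicate 2. The Srebf1 start site carried a peak of 10 tags in ΔDL replicate 2. The Ebf1 start site carried 7 replicate peaks within 1500 bp, 5 of them in KLF3 lists and 2 in ΔDL lists.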

How the results depend on the processing

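Of 57 alternative values, 45 were labelled as kept and 12 as moved. For counts and medians the label rested on a set range around the reported value, and for calls per list on direction alone. A count of peaks could not be labelled as reversed, and no median or difference in calls per list reversed. At single peaks scaling did turn the ΔDL direction, as at the first Srebf1 peak (0.52 to -0.54) and at Cebpd (0.26 to -0.80). Heights scaled to a common median over the 2334 peaks listed for all 3 constructs (shifts of -1.06 for ΔDL and -0.42 for DBD) gave 7 peaks lower and 0 higher in ΔDL, a ΔDL median of -1.6, and in the wider list 90 lower and 1 higher in ΔDL and 0 higher in DBD, since scaling lowers every ΔDL and DBD height. A fold of 1.5 gave 2 peaks higher in ΔDL, and keeping only peaks listed for KLF3 gave 0. With the highest KLF3 peak of each gene only, the DBD median was -3.1. Peaks called in both replicates ranged from 9 to 11 for KLF3, 3 to 6 for ΔDL and 0 to 1 for DBD when 1 replicate was left out and the other required alone. The differences in calls per list then ranged from -7 to -4 for ΔDL and from -10.5 to -8.5 for DBD. With same-numbered replicates taken as pairs (a replicate block), the differences stayed at -5.5 and -9.5, with a sign-flip p of 0.5, the smallest that 2 pairs allow; nothing in the sources pairs them. An overlap of at least 200 bp could not be applied, since the widest replicate peak spans 143 bp. In an alternative chosen after seeing the data, replicate 1 peaks at the 10 genes with a replicate 2 peak went from 9 to 11 for KLF3 and from 3 to 5 for ΔDL, and stayed at 0 for DBD, when a gap of 500 bp was allowed. DBD heights on 1 to 4 tags, at Dlk1, Cebpb and Ebf1, limit the size of those differences.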

Other observations

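Another listed peak lies within one of the genes under a different name. At chr11:44764954-44765354, in intron 10 of 15 of Ebf1, a peak named for Gm12159 was listed for KLF3, with heights of 7.66 in KLF3, 6.81 in ΔDL and 6.20 in DBD (differences of -0.85 and -1.46), and was called in both KLF3 replicates and in 1 replicate of each mutant.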
